A study of Mus musculus with 10 samples.

Results

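The 10 genes described here carry peptides to the cell surface on major histocompatibility complex (MHC) class I: B2m, H2-K1, H2-D1, Tap1, Tap2, Tapbp, Psmb8, Psmb9, Psmb10 and Nlrc5. They were chosen by symbol, and a gene counted as measured where a probe set carried that symbol alone. By this rule 9 of the 10 were measured, of 29766 genes in the series. The probe set of Nlrc5, which encodes the transcriptional activator of class I genes, also carries the symbol of a microRNA, so Nlrc5 is given no value.

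RNA came from ground inner ear tissue, labelled as cochlea, of young CBA/CaJ mice at 6 months of age with normal hearing. Each of the 10 samples was put on its own microarray. The runner group (RW in the labels) holds 5 samples from mice kept alone in a cage with a running wheel. The control group holds 5 from mice kept alone in a cage that had no wheel. No drug, transgene or mutation is named in the labels for either group, and sex, running distance and the number of animals behind a sample are not stated. The series asks what prolonged wheel running does to the hearing loss of old mice; the arrays used here compare young cochlea with and without a wheel.

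Class I molecules are pairs of a heavy chain and beta-2-microglobulin that hold short peptides from the cell's own proteins for inspection by CD8 T cells and natural killer cells. The proteasome cuts the peptides, and interferon-gamma replaces its catalytic subunits with the inducible ones of the immunoproteasome. The TAP transporter moves peptides into the endoplasmic reticulum, where tapasin holds empty class I molecules near it until a peptide binds. Nearly all nucleated cells carry class I, with high levels on leukocytes. In the inner ear, resident macrophages sit among the fibrocytes and vessels of the lateral wall and around the neurons.

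The promoters of these genes are known for shared elements bound by interferon regulatory factors, NF-kappa B and the Nlrc5 complex. The stretches before the starts of H2-K1, H2-D1 and B2m, and the stretch between the starts of Psmb9 and Tap1, are shown because the heavy chains had the closest array profiles and the last stretch serves a pair of genes. They are RefSeq sequences of GRCm38.p6 from C57BL/6J mice, each 5′ to 3′ on the strand named, with every match to a searched motif in capitals. H2-K1 lies at chr17:34000334-34000583 on the minus strand, H2-D1 at chr17:35262844-35263093 on the plus strand and B2m at chr2:122147437-122147686 on the plus strand. The stretch between Psmb9, read leftward from it, and Tap1, read rightward, lies at chr17:34187331-34187555 and is shown on the plus strand.
H2-K1: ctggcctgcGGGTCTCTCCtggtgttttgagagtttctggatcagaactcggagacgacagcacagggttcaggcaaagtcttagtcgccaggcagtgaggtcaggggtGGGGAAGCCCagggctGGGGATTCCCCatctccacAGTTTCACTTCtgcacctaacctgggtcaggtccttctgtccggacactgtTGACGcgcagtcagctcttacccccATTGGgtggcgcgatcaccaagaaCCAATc
H2-D1: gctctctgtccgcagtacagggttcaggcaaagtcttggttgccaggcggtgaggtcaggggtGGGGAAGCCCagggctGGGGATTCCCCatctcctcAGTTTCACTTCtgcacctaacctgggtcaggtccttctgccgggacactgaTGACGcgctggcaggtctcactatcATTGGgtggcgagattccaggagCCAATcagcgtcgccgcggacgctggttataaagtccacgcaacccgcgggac
B2m: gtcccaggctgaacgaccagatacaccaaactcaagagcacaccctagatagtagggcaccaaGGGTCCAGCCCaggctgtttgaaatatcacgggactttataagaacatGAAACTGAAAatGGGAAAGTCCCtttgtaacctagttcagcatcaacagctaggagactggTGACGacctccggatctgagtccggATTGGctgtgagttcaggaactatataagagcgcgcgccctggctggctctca
Psmb9-Tap1: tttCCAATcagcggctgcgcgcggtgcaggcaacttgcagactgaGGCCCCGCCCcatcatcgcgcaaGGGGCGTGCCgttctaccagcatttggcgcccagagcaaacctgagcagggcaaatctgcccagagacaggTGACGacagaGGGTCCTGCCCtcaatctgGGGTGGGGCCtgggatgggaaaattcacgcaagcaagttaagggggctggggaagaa

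Motifs were searched on both strands from 250 bases before to 50 bases after each start, for the 8 genes of the 10 with a window in the table (Tap2 and Nlrc5 had none there). The same search was run over all 32851 windows. The Y box letters CCAAT were found in 6 of the 8 genes (B2m, H2-K1, H2-D1, Tap1, Tapbp and Psmb9) and in 37.4% of all windows. The kappa B letters, GGG and CC with any 5 bases between, were in 5 genes and in 50.8% of windows. The interferon-stimulated core, GAAA repeated after any 2 bases, was in B2m alone and in 3.44% of windows, and the gamma-activated site TTCNNNGAA in Psmb8 alone and in 8.3%. TGACGTCA, the cyclic AMP response element, was in 0 of the 8 and in 1.79% of windows. Motifs added after the sequences were seen were TGACG, the core of the X2 box, in 5 genes and 20.8% of windows, and the interferon response sequence of classical class I promoters, in H2-K1 and H2-D1 and in 0.0517% of windows. The kappa B letters also match within GC-rich sequence, Tap1 and Psmb9 share most of their windows, and a match is not a binding site. Over the 203 bases that aligned, the H2-K1 and H2-D1 stretches were 87.2% identical, with a longest shared run of 47 bases.

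The arrays were alike in scale, with median log2 values between 5.35 and 5.43 over the genes tested. Pearson correlations across genes were 0.995 to 0.997 within controls and 0.991 to 0.997 within runners. Of all genes, 2 passed the limma test at an adjusted p under 0.05, or 0.00672%, and neither was a class I gene. Runner 1 stands apart from the other runners in many gene lists, and without it 99 genes passed, or 0.333%. The differences, list counts and correlations of the class I genes are therefore also given without runner 1. The labels do not say that samples came from separate animals, so the p-values speak only to the spread among these 10 samples, part of which may be technical. In whole tissue, fewer cells of a type and less RNA per cell cannot be told apart.

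All 9 measured genes had lower mean levels in runners, by 0.083 to 0.28 on the log2 scale, but none passed the test across all genes (limma adjusted p from 0.602 to 0.791). B2m, H2-K1, H2-D1 and Psmb8 were lower at an unadjusted p under 0.05, so 4 of 9, where 3.92% of all genes were; 0 were higher at that level, where 3.21% were. The direction alone was below 0 for 49.5% of all genes. The median difference of the 9 genes was -0.14, and that of all genes was 0.00091. For each of the 9 genes the groups overlapped; 0.548% of all genes had every runner below every control. Runner 1 was the highest runner for 7 of the 9 genes, the exceptions being Tap2 and Psmb10, and was above the control mean for 7, the exceptions being B2m and Tap2.

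**Figure D1:**
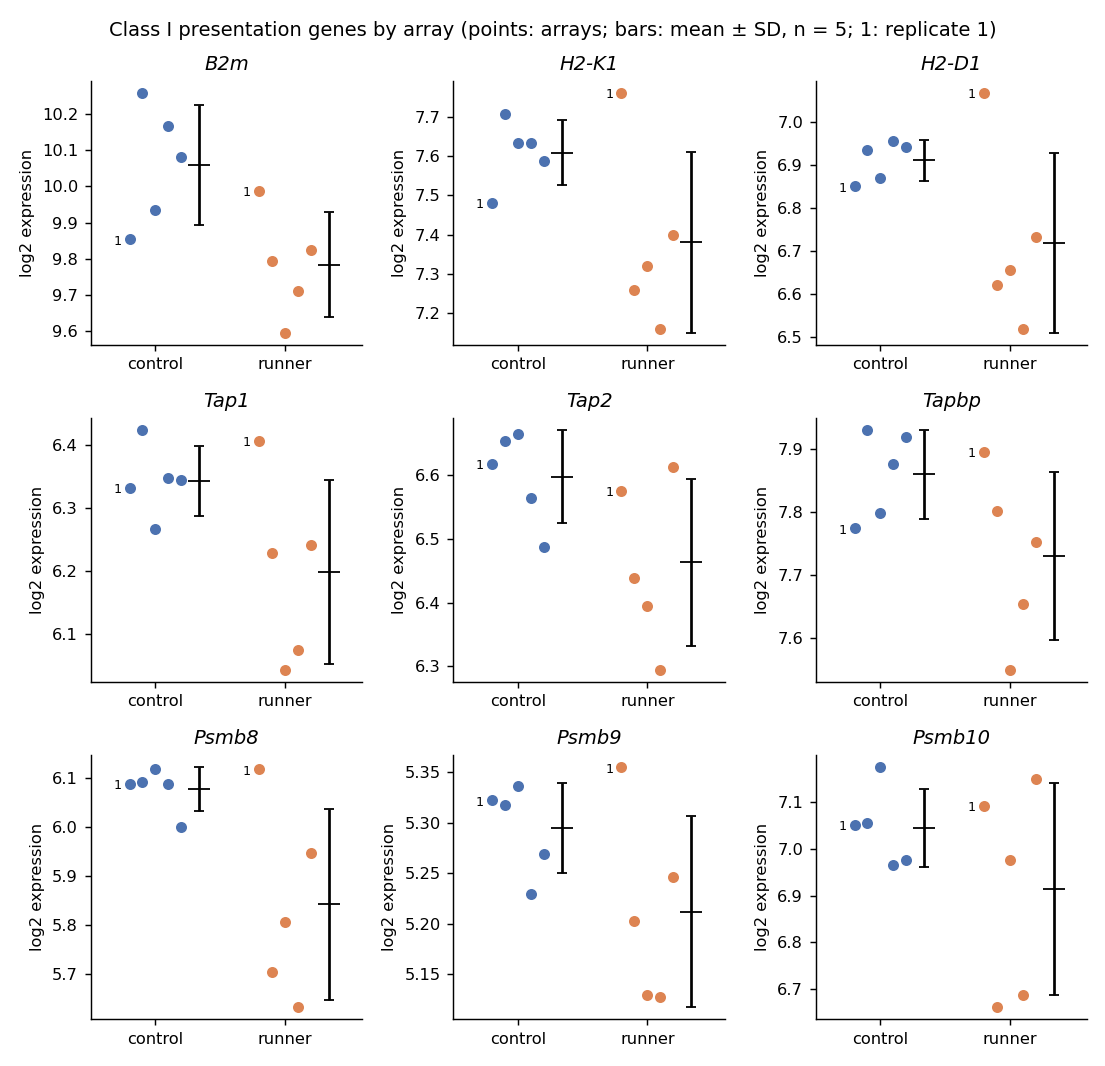
Log2 expression of the 9 measured class I presentation genes in the 5 control and 5 runner arrays, each panel with its own vertical range. Points are arrays, the array numbered 1 in each group is marked, and bars give the mean and SD (n = 5). Runner 1 lies among or above the controls in each panel, while runners 2 to 4 lie at or below the lowest control in most.

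B2m encodes beta-2-microglobulin, the light chain that pairs with class I heavy chains. Its log2 levels in controls 1 to 5 were 9.85, 10.26, 9.94, 10.17 and 10.08, and in runners 1 to 5 they were 9.99, 9.79, 9.60, 9.71 and 9.83. Runners 2 to 5 were each below the lowest control, control 1, and runner 1 was within the controls. Controls averaged 10.06 ± 0.16 (SD, n = 5) and runners 9.78 ± 0.14 (SD, n = 5). Runners were thus lower by 1.21-fold, a log2 difference of -0.28 ± 0.090 (SE; limma unadjusted p = 0.00916, adjusted 0.602). This was the largest difference and the smallest p of the 9 genes, at rank 453 by p among all genes.

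H2-K1 and H2-D1 encode classical heavy chains, the polymorphic chains whose groove binds the peptide. H2-K1 was at 7.48, 7.71, 7.63, 7.63 and 7.59 in controls 1 to 5 and at 7.76, 7.26, 7.32, 7.16 and 7.40 in runners 1 to 5. Runner 1 was the highest of all 10 arrays and runners 2 to 5 were the lowest 4. The difference was -0.23 ± 0.098 (SE; limma unadjusted p = 0.0367, adjusted 0.674), with SDs of 0.083 in controls and 0.23 in runners. H2-D1 was at 6.85, 6.94, 6.87, 6.96 and 6.94 in controls and at 7.07, 6.62, 6.66, 6.52 and 6.73 in runners. Its order of arrays was of the same kind, with runner 1 highest and runners 2 to 5 lowest, and the difference was -0.19 ± 0.088 (SE; limma unadjusted p = 0.0498, adjusted 0.698). The H2-D1 probe set lists 2 Entrez identifiers under its 1 symbol, and classical class I heavy chains are similar in sequence. Probes for one may therefore read transcripts of another, so the 2 profiles may not be independent. CBA/CaJ mice carry the k haplotype of the MHC, unlike the C57BL/6J reference, and how well each probe matches the k alleles was not tested; the strain is the same in all arrays.

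The transporter and tapasin genes differed by less than B2m, H2-K1 and H2-D1, and that contrast was not tested. Tap1 and Tap2 encode the partner chains of the transporter. Tap1 was at 6.33, 6.42, 6.27, 6.35 and 6.34 in controls 1 to 5 and at 6.41, 6.23, 6.04, 6.07 and 6.24 in runners 1 to 5. Runners 2 to 5 were below every control and runner 1 was second to control 2, and the difference was -0.14 ± 0.071 (SE; limma unadjusted p = 0.0638, adjusted 0.704). Tap2 was at 6.62, 6.65, 6.66, 6.56 and 6.49 in controls and at 6.58, 6.44, 6.40, 6.29 and 6.61 in runners. Here runners 1 and 5 lay within the controls, and the difference was -0.13 ± 0.069 (SE; limma unadjusted p = 0.0744, adjusted 0.718). Tapbp, the gene of tapasin, was at 7.77, 7.93, 7.80, 7.88 and 7.92 in controls and at 7.90, 7.80, 7.55, 7.65 and 7.75 in runners. Runners 3, 4 and 5 were below the lowest control, runners 1 and 2 were not, and the difference was -0.13 ± 0.069 (SE; limma unadjusted p = 0.0867, adjusted 0.729).

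Psmb8, Psmb9 and Psmb10 encode the inducible catalytic subunits that define the immunoproteasome. Psmb8 was at 6.09, 6.09, 6.12, 6.09 and 6.00 in controls 1 to 5 and at 6.12, 5.70, 5.81, 5.63 and 5.95 in runners 1 to 5. Runners 2 to 5 were below every control and runner 1 was level with the highest one. The difference was -0.24 ± 0.084 (SE) or 1.18-fold (limma unadjusted p = 0.0149, adjusted 0.607), with SDs of 0.045 in controls and 0.19 in runners. Psmb9 was at 5.32, 5.32, 5.34, 5.23 and 5.27 in controls and at 5.35, 5.20, 5.13, 5.13 and 5.25 in runners. Runners 2, 3 and 4 were below every control, runner 5 lay among them and runner 1 was above them all, with a difference of -0.083 ± 0.057 (SE; limma unadjusted p = 0.174, adjusted 0.783). Psmb10 was at 7.05, 7.05, 7.17, 6.97 and 6.98 in controls and at 7.09, 6.66, 6.98, 6.69 and 7.15 in runners. Its runners were split, with runners 2 and 4 well below the controls and runners 1, 3 and 5 within them, and the difference was -0.13 ± 0.096 (SE; limma unadjusted p = 0.199, adjusted 0.791).

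Runner 1 was above the runner mean for each of the 9 genes, so leaving it out had to move every difference further below 0. The differences of the 9 genes were then between -0.12 and -0.33, and still none passed across all genes. H2-K1 then differed by -0.32 ± 0.066 (SE; limma adjusted p = 0.0617), H2-D1 by -0.28 ± 0.058 (adjusted p = 0.0639), Psmb8 by -0.30 ± 0.068 (adjusted p = 0.0715) and B2m by -0.33 ± 0.087 (adjusted p = 0.103). All 9 were below 0, where 53.4% of all genes were. At an unadjusted p under 0.05, 8 of 9 genes were lower, the exception being Psmb10, where 8.59% of all genes were, and 0 were higher, where 5.87% were. The median of the 9 genes was then -0.20 and that of all genes -0.0082. Runners 2 to 5 were each below every control for 5 of the 9 genes (B2m, H2-K1, H2-D1, Tap1 and Psmb8), as they were for 3.33% of all genes. With both runner 1 and control 1 left out, a setting added once the values were known, H2-K1 (-0.36 ± 0.066 SE, limma adjusted p = 0.0383) and H2-D1 (-0.29 ± 0.062 SE, adjusted p = 0.0490) fell past the threshold, where 0.981% of all genes did so and 1.43% passed in either direction. All 9 genes were then below 0, against 51.3% of all genes, and 6 were lower at an unadjusted p under 0.05, against 9.07%. B2m was then at -0.38 ± 0.082 (SE; limma adjusted p = 0.0517). Control 1 was the lowest control for B2m, H2-K1 and H2-D1, so leaving it out raised their control means.

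**Figure D2:**
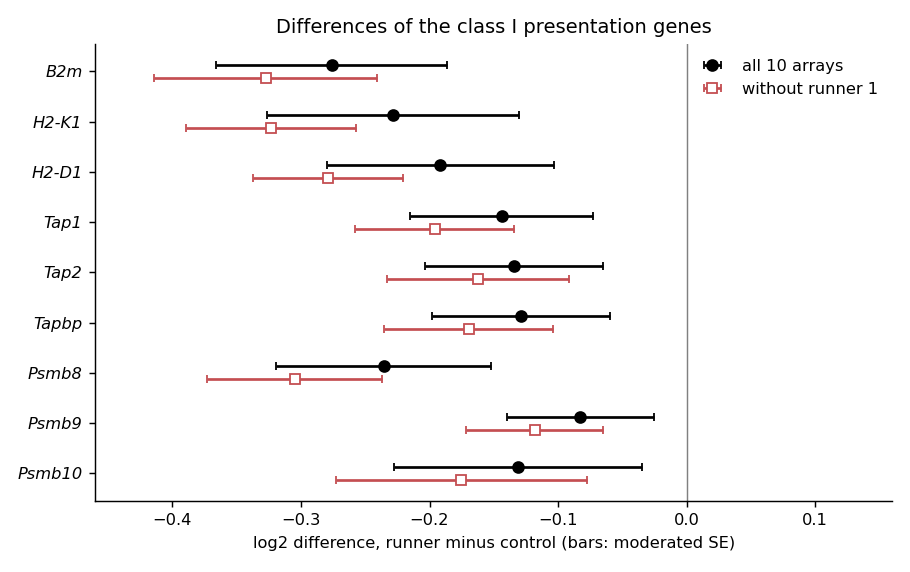
Log2 differences, runner minus control, of the 9 genes with their moderated standard errors, from all 10 arrays (filled circles) and without runner 1 (open squares). All points lie below 0, and leaving out runner 1 moves each further from 0, most for H2-K1 and H2-D1.

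Each inducible subunit takes the place of a constitutive one in the proteasome core, Psmb8 of Psmb5, Psmb9 of Psmb6 and Psmb10 of Psmb7. Psmb5 had no probe set of its own symbol alone, which left 2 pairs. Psmb6 differed by 0.0053 ± 0.075 (SE) and Psmb7 by 0.045 ± 0.073 (SE) between the groups (limma adjusted p = 0.995 and 0.921). Psmb10 minus Psmb7, taken within each array, averaged -0.91 ± 0.042 over controls and -1.09 ± 0.15 over runners (each SD, n = 5). This difference of -0.18 ± 0.069 (SE) did not pass an exact permutation test over all assignments of the arrays (two-sided p = 0.0714, adjusted 0.143 over the 2 pairs). Without runner 1 it was -0.22 (exact permutation adjusted p = 0.0476), and without runner 1 and control 1 it was -0.21 (exact permutation adjusted p = 0.171). Fewer arrays leave fewer assignments, which limits how small that p can be, so the 2 p-values do not compare the 2 differences. For Psmb9 minus Psmb6 the groups were -0.088 ± 0.082 (SE) apart (exact permutation, two-sided, p = 0.317 before and after adjustment).

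The rest of the pathway was read from 8 lists by role, with 80 of 92 genes measured by a probe set of 1 symbol. None of the 80 passed over all genes (limma, adjusted p under 0.05), 9 were lower and 2 higher at an unadjusted p under 0.05. The shares of all genes at that level, 3.92% lower and 3.21% higher, and the 49.5% with a difference below 0, apply to each list that follows. Without runner 1 those shares were 8.59%, 5.87% and 53.4%. The other class I and class I-like heavy chains were lower in 11 of 11, 4 of them at that level, with a median difference of -0.11 (without runner 1, 6 of 11 at that level and -0.17). H2-Q4, a heavy chain gene of the Q region, was at 6.75, 6.89, 6.73, 6.83 and 6.72 in controls 1 to 5 and at 6.80, 6.45, 6.51, 6.31 and 6.56 in runners 1 to 5. Runner 1 lay within the controls and runners 2 to 5 below them, with a difference of -0.26 ± 0.083 (SE; limma adjusted p = 0.592). Fcgrt, the heavy chain of the neonatal Fc receptor, differed by -0.19 ± 0.061 (SE) and H2-T24 by -0.24 ± 0.10 (SE). Interferon-gamma target genes were likewise lower for all 11, of which 4 had an unadjusted p under 0.05, with a median of -0.14 (without runner 1, 4 and -0.15). Cxcl9, a chemokine that draws T cells (-0.27 ± 0.12 SE), the GTPase gene Gbp7 (-0.25 ± 0.092 SE) and Ciita, the activator of class II genes (-0.20 ± 0.092 SE), were the 3 with the smallest p.

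The constitutive proteasome core and the peptide-trimming and chaperone genes had medians near that of all genes. Of 13 constitutive core subunits of the proteasome, 7 were lower and 6 higher. In limma 0 of them had an unadjusted p under 0.05 and 0 an adjusted one, also without runner 1, with a median of -0.0070 (-0.014 without runner 1) and a range of -0.073 to 0.062. Psmb2 (-0.073 ± 0.065 SE) and Psma3 (0.062 ± 0.065 SE) were its ends. The peptide-trimming and chaperone genes were lower in 4 of 8 with a median of -0.0026 and 0 limma p-values under 0.05, unadjusted or adjusted (without runner 1, -0.018 and 1 lower). Among them Erap1, the trimming peptidase of the endoplasmic reticulum, differed by -0.17 ± 0.094 (SE), Npepps by 0.084 ± 0.048 (SE) and Tpp2 by 0.055 ± 0.072 (SE). Proteasome activators and assembly factors had a lower median, -0.055 (-0.062 without runner 1). Of these, 6 of 7 were lower in both settings, and 0 had a limma p under 0.05, unadjusted or adjusted, with Psme1, a subunit of the interferon-inducible activator, at -0.11 ± 0.071 (SE), and the assembly factor genes Psmg2 at -0.082 ± 0.072 (SE) and Pomp at -0.073 ± 0.085 (SE). Whether the lists differed from each other was not tested.

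Of the upstream genes, the transcription factors of class I were lower in 7 of 11 with a median of -0.0051 (6 of 11 and -0.029 without runner 1). With all arrays just 1 had an unadjusted limma p under 0.05, and it was higher, namely Creb1, which binds cyclic AMP response elements, at 0.15 ± 0.062 (SE). Without runner 1, 2 of the 11 were lower and 1 higher at that level. The interferon-responsive factors Irf8 and Irf1 were at -0.19 ± 0.091 (SE) and -0.14 ± 0.089 (SE). Without runner 1 these factors were at -0.26 ± 0.076 (SE) and -0.22 ± 0.065 (SE). Interferons, their receptors and signalling genes were lower in 8 of 12 with a median of -0.020 (9 of 12 and -0.042 without runner 1). Ifngr2, a chain of the interferon-gamma receptor, was the 1 of these at an unadjusted p under 0.05 (-0.15 ± 0.062 SE), followed by the type I receptor genes Ifnar1 (-0.11 ± 0.059 SE) and Ifnar2 (-0.11 ± 0.070 SE). Without runner 1, 3 of the 12 were lower and 0 higher at that level. Ifng, the gene of interferon-gamma itself, averaged 3.09 ± 0.062 over controls and 3.07 ± 0.059 over runners (each SD, n = 5). These levels lie well below the array medians of 5.35 to 5.43, and whether the probe set could show a change there was not tested. The list of receptors that read class I also holds natural killer receptor genes not known to bind classical class I. It shares genes with the T and NK cell markers. Its genes were higher in 6 of 7 with a median of 0.048. Cd8a, a chain of the T cell coreceptor (0.17 ± 0.073 SE), was past an unadjusted limma p of 0.05. Cd8b1 differed by 0.11 ± 0.079 (SE) and Klrd1, a receptor chain of natural killer cells, by 0.15 ± 0.12 (SE). Runner 1 had the highest mean of this list, 4.90, against 4.58 to 4.65 in the other runners and 4.49 to 4.73 in controls. These means too lie below the array medians, and whether the dim probe sets could show a change was not tested. Without runner 1 the median was 0.023 and 4 of 7 were higher, with 0 higher and 1 lower at an unadjusted limma p under 0.05. Cd8a then differed by 0.11 ± 0.064 (SE) and Klrd1 by 0.032 ± 0.091 (SE). With runner 1 and control 1 left out the median was -0.021.

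**Figure D3:**
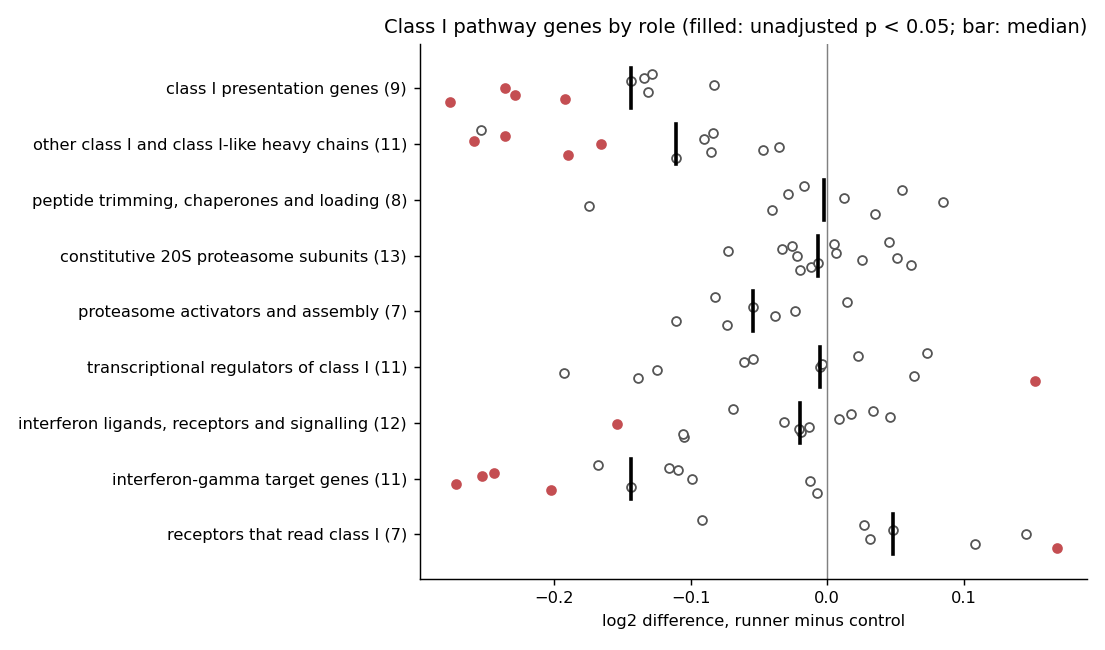
Log2 differences, runner minus control, of single genes in the class I group and in 8 lists of the same pathway; the number of genes measured follows each name. Filled points have an unadjusted limma p under 0.05 and vertical bars are medians, which lie at -0.14 for the class I genes and for interferon-gamma targets and at -0.0070 for the constitutive proteasome.

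Among themselves the 9 genes varied together across the 10 arrays. Pearson's r over their 36 pairs had a median of 0.803 and ran from 0.271 (Tapbp and Psmb10) to 0.975 (H2-K1 and H2-D1), with Spearman's rho from 0.0545 to 0.952. With each group's mean removed the median r was 0.694. Without runner 1 the median r was 0.796, and 0.53 with group means removed, where pairs ran from -0.26 to 0.916. The pair of B2m and Psmb10 had an r of 0.348, and that of Tap1 and Tapbp 0.942. These correlations share the same 10 arrays and their normalization, and are given as description.

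The mean log2 level of the 9 genes was 7.04, 7.15, 7.09, 7.09 and 7.07 in controls 1 to 5 and 7.14, 6.86, 6.83, 6.76 and 6.99 in runners 1 to 5. Runner 1 was second only to control 2, and the other runners were below every control. The 10 genes most like this mean, by Pearson's r over the 10 arrays and with predicted and small RNA genes left out, had r between 0.963 and 0.984, and between 0.959 and 0.982 without runner 1. They were Slc45a2, a transporter of pigment cells, Vav2, the fibrillar collagen gene Col11a2, the water channel gene Aqp1, Abcb4, Colgalt2, Prrg4, Igfbp2, Bace2 and the transcriptional repressor gene Rest. Slc45a2 (r = 0.984) differed by -0.36 ± 0.12 (SE) and Col11a2 (r = 0.974) by -0.25 ± 0.089 (SE) between the groups. H2-Q4, named after its value was seen, was at rank 14 with r = 0.961. Pathway list means were compared with the class I mean after group means were removed and runner 1 was left out. Then r was 0.921 for other heavy chains, 0.860 for interferon-gamma targets and 0.811 for interferon signalling. For the constitutive proteasome it was 0.418 and for transcription factors 0.227. Proteasome activators were at 0.0987, receptors at 0.0770 and trimming and chaperone genes at 0.0760.

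Markers of several cell types were lower in runners together with the class I genes. Macrophage markers were lower for 11 of 12 genes, 5 of them with an unadjusted p under 0.05, and 10 without runner 1. Their mean log2 level lay between 6.67 and 6.84 in controls and between 6.49 and 6.90 in runners, with runner 1 the highest of all arrays. Its correlation with the class I mean was 0.883, and 0.801 with group means removed. Without runner 1 these were 0.869 and 0.245, so the likeness within groups rests on that array. B lineage markers were lower for 9 of 9, each with an unadjusted p under 0.05, with a mean of 6.35 to 6.75 in controls and 5.82 to 6.33 in runners. None of them passed the adjusted limma test, and 5 did without runner 1. Their r with the class I mean was 0.767, and 0.525 with group means removed (0.808 and 0.126 without runner 1).

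Neutrophil markers were lower for 10 of 10, 2 with an unadjusted p under 0.05 and 8 without runner 1, where 1 passed the adjusted test (r = 0.748, and 0.711 without runner 1). Erythroid markers were lower for 5 of 5 measured, 2 with an unadjusted p under 0.05 and 4 without runner 1, where 1 passed (r = 0.775 and 0.748). Endothelial markers were lower for 8 of 8, with 0 limma p-values under 0.05 unadjusted and 0 adjusted, and 2 unadjusted without runner 1 (r = 0.874 and 0.856). T and NK cell markers were lower for 2 of 9, and 4 of 9 without runner 1 (r = 0.284 and -0.013). Dendritic cell markers were lower for 3 of 6, and 4 of 6 without runner 1 (r = 0.0172 and -0.00082). The means of the T and NK cell and dendritic cell lists lay below the array medians in every array. Some of their genes, such as Nkg7 and Flt3, lay above the medians. Whether probe sets at such low levels could follow the class I mean was not tested. With group means removed and runner 1 left out, r was 0.0626 for neutrophil, 0.149 for erythroid and 0.544 for endothelial markers. In that setting r was -0.0821 for T and NK cell markers and -0.309 for dendritic cell markers.

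Markers of cochlear cell types were lower as well. Supporting cell markers, among them Sox2 and Epyc, were lower for 6 of 6, 3 with an unadjusted p under 0.05. Their mean was 7.32 to 7.51 in controls and 6.97 to 7.58 in runners, again with runner 1 highest (r = 0.949, and 0.915 with group means removed). Without runner 1 all 6 had an unadjusted p under 0.05, 2 passed the adjusted limma test, and r was 0.947, or 0.738 with group means removed. Spiral ligament markers were lower for 5 of 5, 3 with an unadjusted p under 0.05 and 5 without runner 1 (r = 0.897 and 0.882). Hair cell markers were lower for 7 of 8, 3 at that level, and for 8 of 8 without runner 1, 6 at that level (r = 0.875 and 0.856). Stria vascularis markers were lower for 5 of 6, 4 at that level, and for 6 of 6 without runner 1, where 5 were at that level and 1 passed (r = 0.864 and 0.853). With group means removed and runner 1 left out, r was 0.467 for spiral ligament, 0.552 for hair cell and 0.395 for stria markers. Of the labelled tissue's markers, those of spiral ligament (list mean 7.99 to 8.21 in controls), supporting cells and stria lay above the array medians. The hair cell list, at 5.14 to 5.33, lay below them, and these values set no limit of detection.

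Bone markers were the list with genes past the adjusted threshold. All 6 were lower, 5 with an unadjusted p under 0.05, and Bglap and Bglap2, copies of the osteocalcin gene, differed by -0.85 ± 0.066 and -0.95 ± 0.083 (SE; limma adjusted p = 0.000402 and 0.000806). They were the 2 genes that passed in the whole series, and without runner 1 4 bone markers passed. Bone markers averaged 8.08 to 8.38 in controls and 7.50 to 7.91 in runners, without overlap, and r with the class I mean was 0.786 (0.860 without runner 1; with group means removed, 0.609 and 0.118). Cerebellar markers went the other way, higher for 4 of 4, with 0 limma p-values under 0.05 unadjusted and 0 adjusted, and 2 unadjusted without runner 1. Their mean lay between 9.19 and 9.40 in controls and between 9.04 and 9.69 in runners, and runner 1 was the lowest array. Their r was -0.896, and -0.899 with group means removed (-0.912 and -0.677 without runner 1). Neuron markers were lower for 1 of 5, and 2 were higher at an unadjusted p under 0.05 (r = -0.780, and -0.744 without runner 1). Without runner 1, 2 were higher and 1 lower at that level. Skeletal muscle markers were lower for 2 of 4, with 0 at that level in either setting (r = 0.0632 and 0.129). Adipocyte markers were lower for 0 of 4, and 3 were higher at that level in both settings (r = -0.444 and -0.506). Their median difference was 0.43, and 0.47 without runner 1. With group means removed and runner 1 left out, r was -0.396 for neuron, 0.280 for skeletal muscle and 0.469 for adipocyte markers. Whether any of these cell types has a part in the lower class I levels was not tested.

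**Figure D4:**
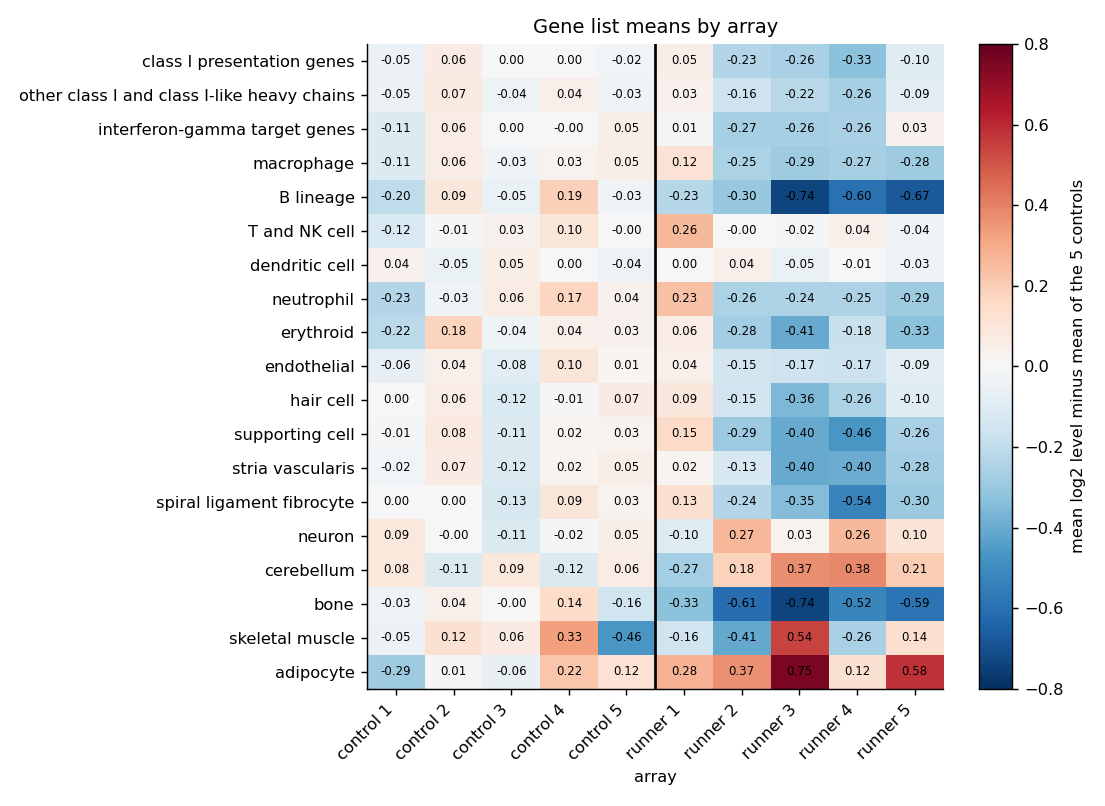
Mean log2 level of each gene list in each array, less the mean of the 5 controls, for the class I genes, related class I chains, interferon-gamma targets and 16 marker lists. Red is above and blue below the controls. The class I genes are at 0.052 in runner 1 and between -0.33 and -0.099 in runners 2 to 5, and cerebellar markers show the opposite signs, at -0.27 in runner 1.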

How the data were processed

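The authors deposited 1 log2 value for each probe set and array. The tools, per the submitters' processing notes, were RMA (background correction, quantile normalization and probe summary) and Partek, with no version. RNA was labelled with a WT PLUS kit from Affymetrix, per the labels' protocols. Build and filters: not given in the sources used here. Quantile normalization hides a change shared by most genes.

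Of 39295 probe sets, 30130 had 1 gene symbol, 2146 several and 7019 none; 827 symbols were updated through Entrez identifiers to RefSeq. Of several probe sets for a gene (294 genes) the brightest was kept, which left 29766 genes. Each class I gene had 1 such probe set. The test was limma's moderated test (version 3.58.1, R 4.3.3) of runner minus control with no covariate, two-sided, with p-values adjusted by Benjamini-Hochberg over all genes and a threshold of 0.05; the procedure was tested on simulated data. SE is the moderated standard error. For pairs it is that of a difference in means. The number of arrays limits the precision. Named genes were the class I genes, the 3 of smallest p in each pathway list, the 10 most like the class I mean and up to 3 per marker list; the paired subunits Psmb6 and Psmb7 are named too, and Ifng, rank 14 of the likeness list and the neighbours in the closing section were named after their values were seen. The genes and lists were chosen with earlier results of these data known. Protein sequences were not used here. Figures were drawn with matplotlib 3.10.9.

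Alternatives were a filter on dim genes, other moderation, repeated quantile normalization, median centring, the mean of all probe sets, array weights, a replicate block, each array left out, and runner 1 and control 1 left out together.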

Additional observations from a re-analysis of the deposited data

Results flagged for a closer look

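Psmb8 in control 5, at a log2 level of 6.00, lay apart from the other controls, which were between 6.09 and 6.12. The gap to the nearest of them was more than 0.71 of the range, the critical value of Dixon's test for 5 samples. This was 1 of 18 groups tested (9 genes in each group of 5), and chance alone marks about 1 group in 20. Without control 5, Psmb8 differed by -0.25 (limma adjusted p = 0.918).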

How the results depend on the processing

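All 170 differences of the 9 genes under the alternatives were below 0, from -0.38 to -0.057. The count of class I genes past the adjusted threshold was 0 under each alternative except that without runner 1 and control 1 (2 genes, H2-K1 and H2-D1). The count lower at an unadjusted p under 0.05 was 4 as tested, 6 with array weights, 3 with median centring, 3 with the filter on dim genes, 2 without moderation, 2 with a replicate block, 6 without runner 1 and control 1, 4 under the other alternatives that kept all arrays, and 2 to 8 when single arrays were left out. It was 8 without runner 1 and 2 without any 1 of runners 2, 3 and 4 and controls 2, 3 and 4. Over all genes, 2 passed as tested, 15 with array weights, 1 without moderation, 426 without runner 1 and control 1, and 2 to 99 with single arrays left out, 99 without runner 1. No other pathway gene passed under any of these alternatives. Psmb10 minus Psmb7 ranged from -0.22 to -0.14 with single arrays left out and passed without runner 1 (-0.22). It did not pass without runner 1 and control 1 (-0.21), where fewer assignments limit how small the exact p can be. Psmb9 minus Psmb6 ranged from -0.13 to -0.034 and did not pass. Same-numbered samples did not deviate together (r from -0.25 to 0.28 over 5 pairs, and 1 of 10 samples correlated best with its own number). The check gave no sign that the numbers pair the samples, but it cannot exclude a pairing that leaves no shared deviation. With the replicate block B2m had an adjusted p of 0.746 in limma. The cause of these shifts was not tested. The filter on dim genes removed Psmb9.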

Other observations

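The genes on either side of the class I genes on the RefSeq map (GRCm38.p6, used for order only) were read from the same test, an analysis added after the data were seen. Of 24 measured protein-coding neighbours, at most 2 on each side, 18 were lower in runners, 4 lower and 1 higher at an unadjusted p under 0.05, with a median difference of -0.054. The 24 include the MHC genes H2-Q1, H2-Q2, H2-DMb1, H2-DMb2, H2-Ob and H2-Ab1, all of them lower. H2-Q1 and H2-Q2 also belong to the list of other heavy chains. The counts therefore do not describe genes outside antigen presentation alone. Of all genes 49.5% were below 0, 3.92% lower and 3.21% higher at that level. Without runner 1, 19 of the 24 were lower, 7 lower and 1 higher at that level, with a median of -0.093, against 53.4%, 8.59% and 5.87% of all genes. Next to Tap2 the class II genes H2-Ob (-0.24 ± 0.10 SE) and H2-Ab1 (-0.24 ± 0.12 SE) differed by about as much as Psmb8. Beside H2-K1, Vps52 (0.020 ± 0.048 SE) and Ring1 (-0.022 ± 0.051 SE), which are not antigen presentation genes, differed by less than their errors. Beside B2m, Patl2 was at -0.012 ± 0.055 (SE) on one side and Trim69 at -0.14 ± 0.065 (SE) on the other. Zbtb22 beside Tapbp (-0.16 ± 0.060 SE) and Pskh1 near Psmb10 (-0.12 ± 0.052 SE), also outside antigen presentation, were lower by about as much as Tap1. Beside Psmb10, Lcat, which esterifies cholesterol in plasma lipoproteins, was higher (0.14 ± 0.061 SE; limma adjusted p = 0.676). H2-Q2, a class I gene near H2-D1, was at -0.17 ± 0.073 (SE). The 5 neighbours with an unadjusted p under 0.05 were H2-Ob, H2-Q2, Zbtb22, Pskh1 and Lcat, and 0 of the 24 passed after adjustment in limma.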
